A study of Mus musculus with 12 samples.

Results

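A set of 10 genes that mark pericytes and vascular smooth muscle, the mural cells that wrap the walls of blood vessels, was followed in mouse brain tumours: Pdgfrb, Notch3, Mcam, Anpep, Rgs5, Abcc9, Acta2, Tagln, Myh11 and Des. The genes were chosen by name as mural cell genes, with earlier results of these data known. All 10 of 10 had a row in the deposited table of 24054 genes. All 10 also passed the filter on low values, a level of at least 1 CPM (reads of a gene scaled to library size) in at least 3 of 12 libraries, which kept 15232 genes.

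Pericytes sit on capillaries within the basement membrane of the endothelium, and smooth muscle cells ring arterioles and arteries. Endothelial cells recruit pericytes through the PDGF-B ligand, which acts on the receptor PDGFR-beta, and they instruct smooth muscle through Notch ligands, which act on Notch3. In the brain these cells set vessel calibre and support the blood-brain barrier, and in gliomas their coverage of vessels is often irregular. Contractile genes such as Acta2, Tagln and Myh11 are controlled by serum response factor with its myocardin-family partners, which binds a short element called the CArG box.

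The tumours grew from mouse cells injected into the striatum of female C57BL/6 mice. Their labels name the line ms7080, and the protocol speaks of BC cells. The 4 groups of 3 mice were untreated young mice (2 months, from commercial breeders), untreated old mice (16 months, from an ageing colony), old mice treated with NMN (nicotinamide mononucleotide, from which cells make NAD) at 300 mg per kg per day, and old mice under parabiosis, a surgical joining of the circulations of 2 animals. How old the joined partners were is not stated in the labels, and age cannot be told apart from the source of the mice. Tissue was taken when mice had symptoms, so time after injection is not fixed.

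Libraries held 18566096 to 26779406 reads, and the 10 genes were covered by 18 reads (the lowest, for Des) to 2985 reads (the highest, for Notch3). In 3 libraries labelled female, young 3, old 1 and old 2, Xist was at 5.33, 1.88 and 2.76 CPM, against 164 to 1127 CPM in the other 9 libraries. Results are therefore also given without these 3 libraries, which leaves 1 old library that is assumed to vary like the other groups. Summed neuronal markers ranged from 159 to 899 CPM in young, 667 to 1263 CPM in old, 1429 to 3508 CPM in NMN and 1137 to 2702 CPM in parabiosis tumours. Their part in the differences described here was not tested beyond a fit with a brain tissue score as a covariate. In bulk tissue, fewer cells of a type and less RNA per cell cannot be told apart.

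The promoters of Acta2, Rgs5 and Abcc9 are shown because the levels of these 3 genes varied together across libraries, as described further on. Each stretch is the 250 bases before an annotated start in RefSeq (GRCm38.p6), printed 5′ to 3′ on the strand of the gene, with motif matches in capitals. The Acta2 stretch is chr19:34255374-34255623 on the minus strand and the Rgs5 stretch is chr1:169655251-169655500 on the plus strand. The Abcc9 stretch is chr6:142702275-142702524 on the minus strand. The RefSeq gene spans of Acta2 and Abcc9 reach beyond the starts used, to 34255585 and 142702766. The Abcc9 stretch therefore lies within its gene span, and so does most of the Acta2 stretch.
Acta2: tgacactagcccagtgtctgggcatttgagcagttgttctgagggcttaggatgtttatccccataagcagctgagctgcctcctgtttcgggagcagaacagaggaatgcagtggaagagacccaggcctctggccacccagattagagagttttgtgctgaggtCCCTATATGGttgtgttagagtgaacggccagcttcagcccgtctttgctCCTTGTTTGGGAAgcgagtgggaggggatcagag
Rgs5: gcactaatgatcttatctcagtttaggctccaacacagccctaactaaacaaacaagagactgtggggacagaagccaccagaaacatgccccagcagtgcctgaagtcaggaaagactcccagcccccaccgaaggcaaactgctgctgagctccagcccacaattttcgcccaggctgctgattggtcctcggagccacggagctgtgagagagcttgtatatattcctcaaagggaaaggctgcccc
Abcc9: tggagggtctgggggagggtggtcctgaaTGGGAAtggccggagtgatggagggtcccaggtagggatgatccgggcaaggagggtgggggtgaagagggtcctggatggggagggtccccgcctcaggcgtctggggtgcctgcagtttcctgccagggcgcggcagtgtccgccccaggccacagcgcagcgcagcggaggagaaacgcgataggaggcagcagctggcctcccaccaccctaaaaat

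Both strands were searched for the CArG box with up to 1 mismatch, for TGGGAA, which is the core bound by the Notch effector RBPJ, and for TATAAA. In Acta2, CCCTATATGG began at position -84 and CCTTGTTTGG at position -34, counted from the annotated start used here. Each had 1 mismatch to the CArG consensus. TGGGAA began at position -27 of Acta2 and shared 3 bases with the second CArG-like match, and in Abcc9 it began at position -221. Of the 7 genes with a promoter entry, 1 held a CArG-like match and 2 held TGGGAA. Among 27025 promoters of the same length of 300 bases, 21.4% held a CArG-like match, 1.57% a match with no mismatch, 25.5% TGGGAA and 14.2% TATAAA. These matches describe the letters of the window and are not evidence of binding.

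**Figure D1:**
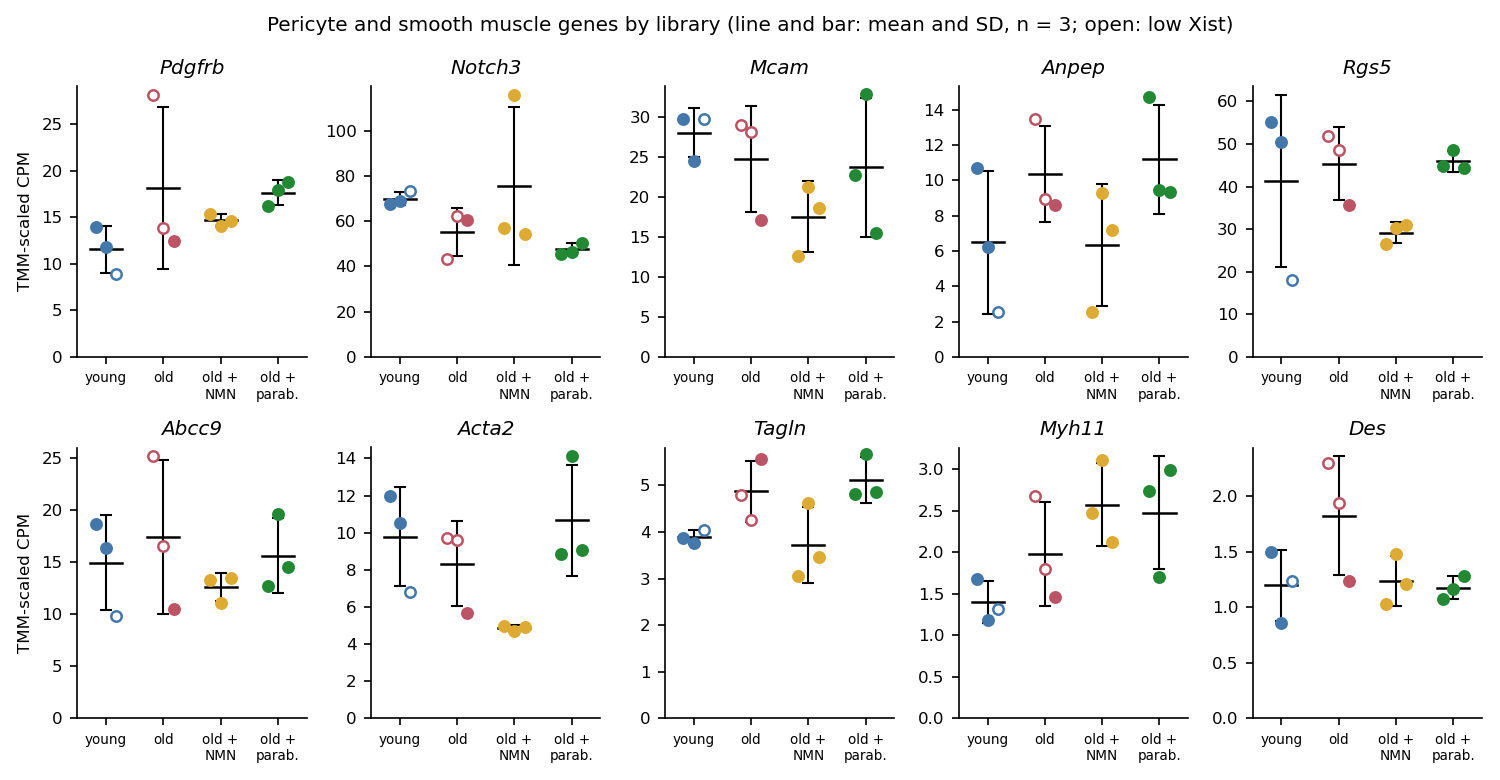
TMM-scaled CPM of the 10 genes in each library (vertical axes, linear from 0) in the 4 groups, with the mean and SD (n = 3) as line and bar and the 3 libraries of low Xist as open points. Acta2 was between 4.71 and 4.99 CPM in all 3 NMN tumours and at or above 5.68 CPM in every other library.

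Acta2, the smooth muscle actin, had the clearest pattern of the 10 genes. It was at 11.99, 10.52 and 6.82 CPM in the young tumours, 9.71, 9.60 and 5.68 CPM in the old, 4.99, 4.71 and 4.92 CPM in the NMN and 8.83, 14.12 and 9.08 CPM in the parabiosis tumours. The NMN tumours were the lowest and did not overlap with any other group, while young, old and parabiosis tumours overlapped with one another. The log2 difference, on the log2(CPM + 1) scale used throughout, was -0.64 ± 0.25 (SE) for NMN against old (limma unadjusted p = 0.0290, adjusted p = 0.480). Without the 3 libraries of low Xist it was -0.19 (adjusted p = 0.817), with old replicate 3 at 5.68 CPM as the one old library left.

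Tagln, the actin-binding protein transgelin, was at 3.86, 3.76 and 4.05 CPM in young, 4.79, 4.26 and 5.57 CPM in old, 3.05, 4.63 and 3.46 CPM in NMN and 4.82, 5.67 and 4.85 CPM in parabiosis tumours. All 3 old and all 3 parabiosis tumours were above the young, and the NMN tumours overlapped with both young and old. Tagln differed by 0.26 ± 0.16 in old against young (limma adjusted p = 0.792) and by -0.32 ± 0.16 in NMN against old (adjusted p = 0.487). An antisense gene model, Gm48529, covers 1241 of the 1988 exonic bases of Tagln in the GENCODE annotation of GRCm38, and the labels do not state whether reads were counted by strand.

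Myh11, the smooth muscle myosin heavy chain, was low, at 1.68, 1.19 and 1.32 CPM in young, 2.67, 1.79 and 1.47 CPM in old, 2.48, 3.11 and 2.13 CPM in NMN and 2.74, 1.70 and 2.99 CPM in parabiosis tumours. The young libraries lay below all NMN and parabiosis libraries and overlapped with the old. Myh11 therefore did not follow Acta2 in the NMN tumours, where it had its highest mean, 2.57 ± 0.50 CPM (SD, n = 3), while Acta2 had its lowest, 4.87 ± 0.15 CPM (SD, n = 3). Des, the intermediate filament desmin, was at 1.498, 0.857 and 1.236 CPM in young, 2.30, 1.94 and 1.24 CPM in old, 1.03, 1.48 and 1.21 CPM in NMN and 1.08, 1.17 and 1.28 CPM in parabiosis tumours. The 2 highest Des values were those of old 1 and old 2, both libraries of low Xist, and the groups overlapped. Des differed by 0.36 ± 0.18 in old against young (limma adjusted p = 0.748) and, without the 3 libraries, by 0.058 (adjusted p = 0.998).

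The smooth muscle list outside the 10 was uneven, with 15 of 18 genes kept by the filter. Myocd, the coactivator myocardin, was at 0 in 1 library and reached 0.31 CPM at most, and Actg2, the enteric smooth muscle actin, lay between 0.067 and 0.41 CPM, where 3 reads correspond to 0.100 to 0.143 CPM. Cnn1, the contractile protein calponin, ranged from 0.33 to 8.74 CPM, and Lmod1 (leiomodin) from 1.31 to 2.31 CPM. Other genes of the list were at higher levels in CPM, with Cald1 (caldesmon) at 49.7 to 131 CPM, Tpm1 (a tropomyosin) at 49.0 to 137 CPM, Smtn (smoothelin) at 22.2 to 41.3 CPM, Mylk (the myosin light chain kinase) at 5.63 to 16.5 CPM and Myl9 (a myosin light chain) at 3.34 to 6.98 CPM. Of the pericyte genes outside the 10, Vtn (vitronectin) was at 8.35 to 27.3 CPM and Kcnj8 (the channel pore partner of Abcc9) was low, at 1.05 to 3.42 CPM. Cspg4 (the proteoglycan NG2) was at 74.6 to 253 CPM, but it is also expressed by oligodendrocyte precursors and glioma cells. Summed skeletal muscle markers were at 1.29 to 4.95 CPM.

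Rgs5, a regulator of G-protein signalling that is a strong pericyte marker, was at 55.2, 50.4 and 18.0 CPM in young, 51.8, 48.6 and 35.6 CPM in old, 26.5, 30.2 and 31.0 CPM in NMN and 44.7, 48.7 and 44.3 CPM in parabiosis tumours. The NMN tumours lay below all old and all parabiosis tumours, and the lowest value of all was that of young 3, a library of low Xist. The difference of NMN against old was -0.60 ± 0.34 (limma adjusted p = 0.500), and without the libraries of low Xist it was -0.28 (adjusted p = 0.678). Abcc9, the regulatory subunit SUR2 of ATP-sensitive potassium channels, was at 18.6, 16.3 and 9.80 CPM in young, 25.2, 16.5 and 10.5 CPM in old, 13.3, 11.1 and 13.4 CPM in NMN and 12.7, 19.6 and 14.5 CPM in parabiosis tumours. Its groups all overlapped, and its spread within old tumours, 17.4 ± 7.41 CPM (SD, n = 3), was wider than any difference between group means.

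Pdgfrb, the receptor that receives the pericyte recruitment signal, was at 13.9, 11.8 and 8.95 CPM in young, 28.1, 13.9 and 12.4 CPM in old, 15.3, 14.0 and 14.6 CPM in NMN and 16.2, 17.9 and 18.8 CPM in parabiosis tumours. The parabiosis libraries lay above all young and all NMN libraries, and the single high value was old 1. Pdgfrb differed by 0.54 ± 0.26 in old against young (limma adjusted p = 0.723), and this turned to -0.041 (adjusted p = 0.998) without the libraries of low Xist.

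Notch3, the Notch receptor of mural cells, was at 67.7, 68.8 and 73.3 CPM in young, 43.1, 62.3 and 60.4 CPM in old, 57.0, 116 and 54.3 CPM in NMN and 45.5, 46.5 and 50.5 CPM in parabiosis tumours. The young tumours lay above all old and all parabiosis tumours, and NMN 2 stood far above every other library. Across libraries Notch3 ran against the other pericyte genes, as described further on, and which cells its reads came from was not tested. The difference of old against young was -0.35 ± 0.25 (limma adjusted p = 0.824). Mcam, the adhesion molecule CD146, was at 29.8, 24.5 and 29.8 CPM in young, 29.0, 28.2 and 17.2 CPM in old, 12.7, 21.3 and 18.7 CPM in NMN and 22.8, 32.9 and 15.5 CPM in parabiosis tumours. All NMN values were below all young values, and the other groups overlapped. Anpep, the aminopeptidase CD13, had the widest range, from 2.52 CPM in NMN 1 and 2.56 CPM in young 3 to 14.7 CPM in parabiosis 1, a ratio of 5.85. Its difference of old against young was 0.73 ± 0.46 (limma adjusted p = 0.802), and 0.060 without the libraries of low Xist.

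**Figure D2:**
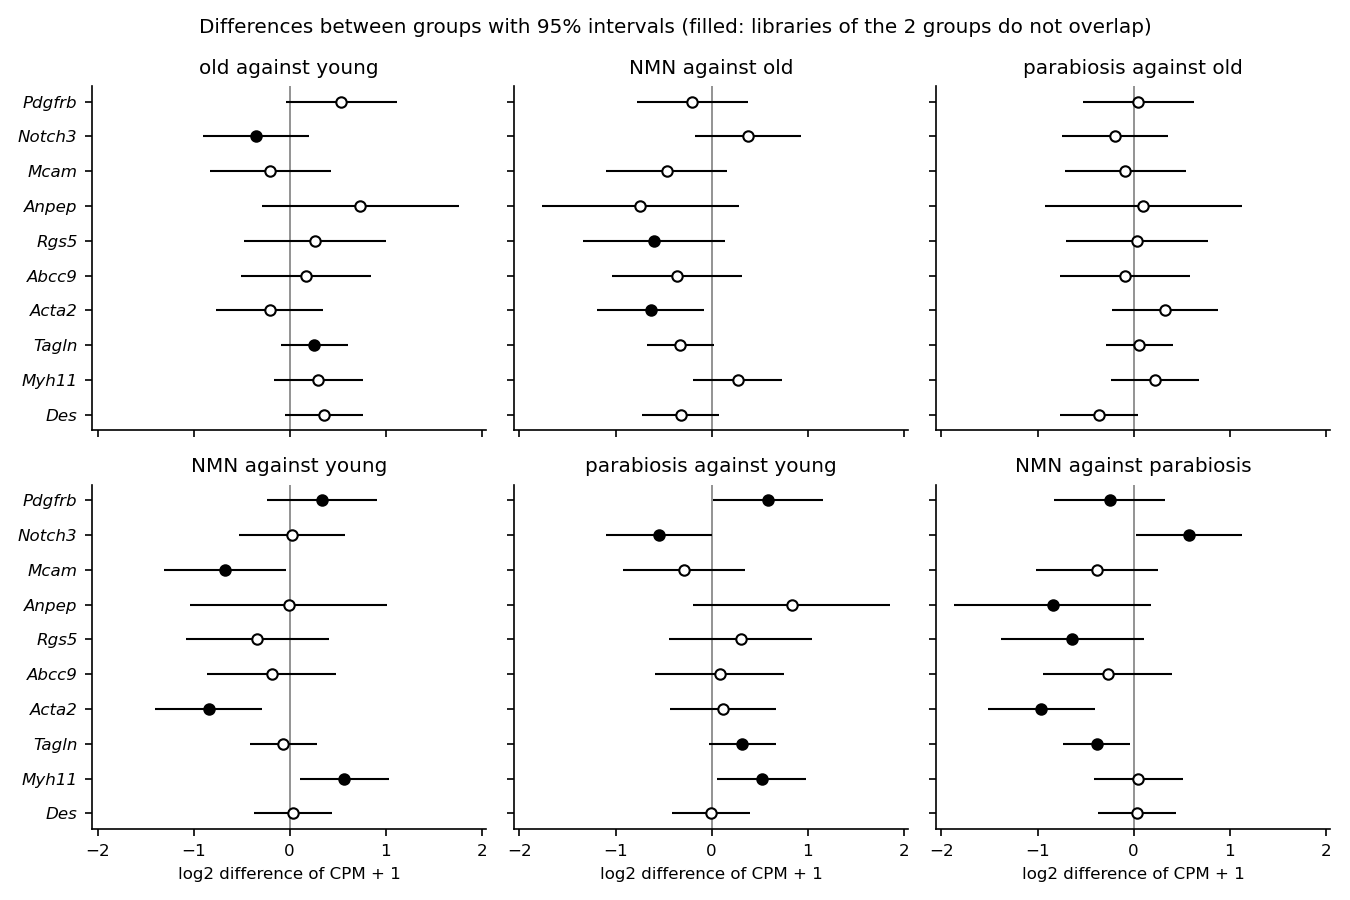
Log2 difference of CPM + 1 (horizontal axes) for each gene in the 6 comparisons, with 95% intervals from limma, where filled points mark genes whose libraries did not overlap between the groups compared. The interval of Acta2 lies below 0 in NMN against old, NMN against young and NMN against parabiosis, and no gene passed an adjusted p of 0.05.

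In the comparison of old with young tumours, 7 of the 10 genes had a higher and 3 a lower mean, beside 53.0% of all genes higher and 47.0% lower, with a median log2 difference of 0.26 beside 0.02 over all genes. None of the 10 passed an adjusted p of 0.05 in limma, nor did any of the 15232 genes (0%), while 1060 genes (6.96%) and 0 of the 10 had an unadjusted p under 0.05. DESeq2 called 72 genes and edgeR 0 of all genes. Libraries did not overlap for Tagln, higher in old beside 6.95% of all genes, and for Notch3, lower in old beside 6.60%, which makes 2 of 10 beside 13.6% in either direction. Without the libraries of low Xist 4 genes were higher and 6 lower, with a median of -0.11, and old 3 was the only old library left. Leaving out 1 library at a time kept the median above 0, from 0.096 (without young 3) to 0.43 (without old 3).

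In the comparison of NMN with old tumours, 8 of the 10 genes had a lower mean and 2 (Notch3 and Myh11) a higher one, beside 48.4% lower and 51.6% higher over all genes, with a median of -0.34 beside 0.01 over all genes. The test called 0 of the 10 and 0% of all genes, with 1573 genes (10.3%) and 1 of the 10 (Acta2) at an unadjusted p under 0.05, and DESeq2 called 46 genes and edgeR 0. Acta2 and Rgs5 did not overlap, both lower, 2 of 10 beside 6.92% of all genes in that direction, 12.6% in the other and 19.5% in either. Without the libraries of low Xist 5 genes were higher and 5 lower, with a median of -0.0024. Summed endothelial markers were at 216 to 236 CPM in NMN and 187 to 308 CPM in old tumours, and their part in the difference was not tested beyond a fit with the endothelial score as a covariate.

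Parabiosis and NMN were compared with the same 3 old libraries, so their differences from old are not independent. In parabiosis against old tumours 6 genes had a higher and 4 a lower mean, beside 54.1% and 45.9% of all genes, with a median of 0.04 beside 0.02 over all genes. Without the libraries of low Xist 7 were higher and 3 lower, with a median of 0.37. The test called 0 of the 10 and 0% of all genes, with 854 genes (5.61%) and 0 of the 10 at an unadjusted p under 0.05, and DESeq2 called 44 genes and edgeR 0. None of the 10 was free of overlap, beside 6.99% of all genes higher, 6.70% lower and 13.7% in either direction. The differences ran from -0.36 ± 0.18 for Des (limma adjusted p = 0.898) to 0.33 ± 0.25 for Acta2 (adjusted p = 0.904). The intervals were wide, for Rgs5 from -0.71 to 0.78 and for Pdgfrb from -0.52 to 0.62, so differences of that size would not have been detectable.

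The 3 other pairs of groups set the treated old tumours beside the young tumours and beside each other. In NMN against young tumours limma called 8.15% of all genes, and 0 of the 10, with 25.7% of all genes and 3 of the 10 at an unadjusted p under 0.05. Of the 10, 4 had a higher and 6 a lower mean, beside 48.3% and 51.7% of all genes. Acta2 came nearest, at -0.84 ± 0.25 (limma adjusted p = 0.0642), followed by Myh11 at 0.57 ± 0.21 (adjusted p = 0.117) and Mcam at -0.67 ± 0.29 (adjusted p = 0.171). Libraries did not overlap for 4 of 10 (Acta2 and Mcam lower, Myh11 and Pdgfrb higher), beside 10.7% of all genes lower, 18.5% higher and 29.2% in either direction. Without the libraries of low Xist, of which only young 3 is in these groups, Acta2 differed by -1.06 and Rgs5 by -0.84. With only young 3 left out, both passed (limma adjusted p = 0.0218 for Acta2 and 0.00872 for Rgs5), with 2129 genes called. Young 3 had the lowest Rgs5 and Acta2 of the young tumours. With all 12 libraries Acta2 also passed in DESeq2 (adjusted p = 0.00884, with 2367 genes called). In limma it passed after quantile normalization (adjusted p = 0.0365, 1070 called) and with the endothelial score as a covariate (adjusted p = 0.0301, 1193 called). It also passed in limma with the replicate number as a block (adjusted p = 0.0417, 1376 called). It did not pass in edgeR (adjusted p = 0.0599, 93 called). With the brain tissue score as a covariate Acta2 differed by -0.39 (limma adjusted p = 0.637), and 0 genes were called.

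In parabiosis against young tumours 7 of the 10 had a higher and 3 a lower mean, beside 51.6% and 48.4% of all genes. Without young 3, the library of low Xist in these groups, 5 were higher and 5 lower, with a median of -0.041 in place of 0.21. With all libraries limma called 0% of all genes and 0 of the 10, with 2763 genes (18.1%) and 2 of the 10 at an unadjusted p under 0.05 and 977 genes called by DESeq2 and 0 by edgeR. Pdgfrb, at 0.59 ± 0.26 (limma adjusted p = 0.267), Myh11, at 0.52 ± 0.21 (adjusted p = 0.228), and Tagln, at 0.32 ± 0.16 (adjusted p = 0.314), were higher without overlap. Notch3, at -0.55 ± 0.25 (adjusted p = 0.279), was lower without overlap, which makes 4 of 10 beside 13.7% of all genes higher, 10.2% lower and 23.9% in either direction.

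In NMN against parabiosis tumours, neither of which holds a library of low Xist, limma called 0% of all genes and 0 of the 10, with 1470 genes (9.65%) and 3 of the 10 at an unadjusted p under 0.05 and 224 genes called by DESeq2 and 0 by edgeR. Of the 10, 6 did not overlap, 1 higher and 5 lower, beside 6.97% of all genes higher, 7.83% lower and 14.8% in either direction. Means were higher for 3 and lower for 7, beside 54.1% and 45.9% of all genes. Acta2 differed by -0.96 ± 0.25 (limma unadjusted p = 0.00301, adjusted p = 0.284), and it ranked 154 of 15232 by p. DESeq2 on whole reads gave it an adjusted p of 0.0170. Anpep, at -0.84 ± 0.46, Rgs5, at -0.64 ± 0.34, Tagln, at -0.39 ± 0.16, and Pdgfrb, at -0.25 ± 0.26, were also lower and Notch3, at 0.57 ± 0.25, higher, with limma adjusted p from 0.468 to 0.741. Of the 18 endothelial genes, 9 were lower in NMN without overlap too, with summed levels of 216 to 236 CPM in NMN and 262 to 289 CPM in parabiosis tumours.

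An F test over the 4 groups called 0% of all genes, with 2780 (18.3%) at an unadjusted p under 0.05 and 1614 called by DESeq2 and 0 by edgeR. Acta2 had the smallest value of the 10 (limma unadjusted p = 0.0132, adjusted p = 0.164), and Abcc9 the largest (adjusted p = 0.825).

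The pathway partners of these genes were examined from lists chosen by function, with earlier results of these data known. Calls among them were made in NMN against young tumours, where 8.15% of all genes were called. That number was 0 with the brain tissue score as a covariate, 0 without young 1, young 2 or NMN 3, and 2 without NMN 1, so each call given in this and the next 2 paragraphs is lost in at least 4 of these fits. Of 5 PDGF genes kept, 0 were called in any comparison. Pdgfb, the endothelial ligand of PDGFR-beta, was at 8.13 CPM in young, 9.33 CPM in old, 9.02 CPM in NMN and 12.1 CPM in parabiosis tumours on average. Of 12 Notch genes, 2 rose in NMN against young and 0 fell. These were the ligand Jag2, from 6.49 ± 0.59 to 12.8 ± 3.81 CPM (SD, n = 3 each, limma adjusted p = 0.0452), and the target gene Heyl, from 1.49 ± 0.40 to 3.88 ± 1.41 CPM (adjusted p = 0.0487). Jag1, the ligand best known for smooth muscle, was at 56.8 CPM in young and 41.5 CPM in NMN tumours on average.

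Of 3 channel partners of Abcc9, 1 rose in NMN against young tumours, beside the 8.15% of all genes called there, Kcnj11, from 1.54 ± 1.17 to 9.40 ± 7.17 CPM (SD, n = 3 each, limma adjusted p = 0.0410). Kcnj11 forms channels in neurons. The neuronal list rose in the same comparison in 10 of 13 genes, and the part of neuronal tissue in the Kcnj11 difference was not tested. Of 3 serum response factor genes kept, Mkl1, a myocardin-related coactivator, rose from 27.2 ± 1.24 to 40.6 ± 4.21 CPM (SD, n = 3 each, limma adjusted p = 0.0356). Srf itself was at 28.8 CPM in young, 28.5 CPM in old, 29.5 CPM in NMN and 32.0 CPM in parabiosis tumours on average. Of 10 TGF-beta and angiopoietin genes, 0 were called in any comparison. All 10 had a lower mean in NMN than in old tumours, beside 48.4% of all genes. Their mean log2 deviation from the mean of 12 libraries was 0.44 in old 1 and 0.17 in old 2, both libraries of low Xist. It was -0.19 in old 3, against -0.40, -0.010 and -0.19 in the NMN tumours.

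Among the other mural genes, 3 of 19 pericyte genes rose in NMN against young (Heyl, Zic1 and Slc6a20a) and 1 of 15 smooth muscle genes (Ldb3, adjusted p = 0.0487), with 0 lower, beside the 8.15% of all genes called there. Zic1 was at 3.34 ± 1.04 CPM in young and 18.0 ± 12.2 CPM in NMN tumours (SD, n = 3 each, limma adjusted p = 0.0451). Slc6a20a was at 0.92 ± 1.09 CPM in young and 5.34 ± 1.81 CPM in NMN tumours (adjusted p = 0.0275). Both are also known from meningeal cells, and which cells their reads came from was not tested. In the same comparison 1 of 12 fibroblast genes and 1 of 18 endothelial genes rose, beside 8.15% of all genes called.

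**Figure D3:**
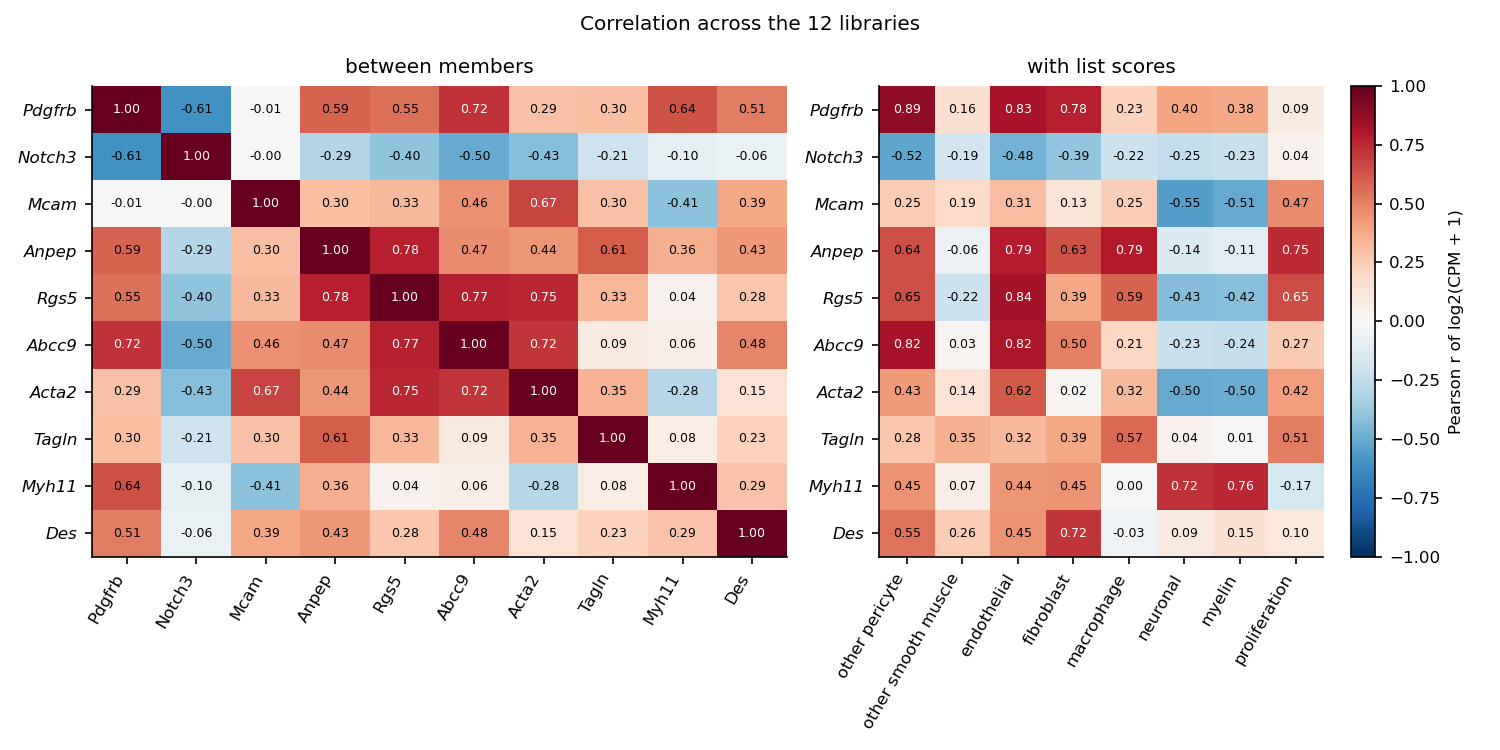
Pearson correlation of log2(CPM + 1) across the 12 libraries between the 10 genes (left) and of each gene with the scores of 8 marker lists (right), on a colour scale from -1 to 1. Rgs5, Abcc9 and Acta2 correlate with one another at 0.72 to 0.77, and Notch3 correlates at or below 0 with all 9 other genes.

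The 10 genes did not vary as 1 block across the 12 libraries. Of 45 pairs 33 correlated positively, with a median Pearson r of 0.30. By Pearson permutation test 0 of 45 pairs passed an adjusted p of 0.05, and by Spearman 4 did. Rgs5 and Acta2 had r = 0.75 (permutation p = 0.00422, adjusted p = 0.066) and rho = 0.85 (permutation p = 0.0009, adjusted p = 0.0198). Their r was 0.94 without young 3 and NMN 1, the libraries farthest from the median of Rgs5. Rgs5 and Abcc9 had r = 0.77 (permutation p = 0.00301, adjusted p = 0.066) and rho = 0.84 (permutation p = 0.00128, adjusted p = 0.0198), with r = 0.78 without the same 2 libraries. Abcc9 and Acta2 had r = 0.72 (permutation p = 0.00912, adjusted p = 0.0821) and rho = 0.78 (permutation p = 0.00411, adjusted p = 0.0462), with r = 0.85 without young 3 and old 1. Taken as deviations from the group means, these 3 pairs had r of 0.77, 0.74 and 0.91, so they varied together within groups as well.

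Pdgfrb and Notch3 ran in opposite directions, with r = -0.61 (permutation p = 0.0475, adjusted p = 0.223) and rho = -0.83 (permutation p = 0.00132, adjusted p = 0.0198), and r was -0.53 without young 3 and old 1. The highest pair by r, Anpep and Rgs5 at 0.78 (permutation p = 0.0044, adjusted p = 0.066; rho = 0.64, permutation p = 0.030, adjusted p = 0.193), fell to 0.31 without young 3 and NMN 1 and rests on those libraries.

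Of 80 correlations of the 10 genes with 8 list scores, 7 passed an adjusted p of 0.05 by Pearson and 0 by Spearman. Of these, 4 were with the endothelial score, Rgs5 at r = 0.84 (rho = 0.73), Pdgfrb at 0.83 (rho = 0.75), Abcc9 at 0.82 (rho = 0.81) and Anpep at 0.79 (rho = 0.78), with adjusted permutation p of 0.0195 for the first 3 and 0.0359 for Anpep. Without the 2 libraries farthest from the median of the endothelial score, young 3 and old 3, they were 0.75, 0.71, 0.70 and 0.82. Pdgfrb and Abcc9 also followed the other pericyte genes, at r = 0.89 (rho = 0.76, adjusted permutation p = 0.0168) and 0.82 (rho = 0.75, adjusted permutation p = 0.0195), and at 0.67 and 0.60 without young 3 and old 1. Notch3 ran against both scores, at -0.52 for pericyte and -0.48 for endothelial genes. Myh11 followed the myelin score, at r = 0.76 (rho = 0.82, adjusted permutation p = 0.0316), and at 0.74 without young 1 and young 2. As deviations from the group means r was 0.41 for Myh11 with the myelin score, against 0.70 to 0.89 for the 4 genes with the endothelial score and 0.83 and 0.95 for Pdgfrb and Abcc9 with the pericyte score.

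**Figure D4:**
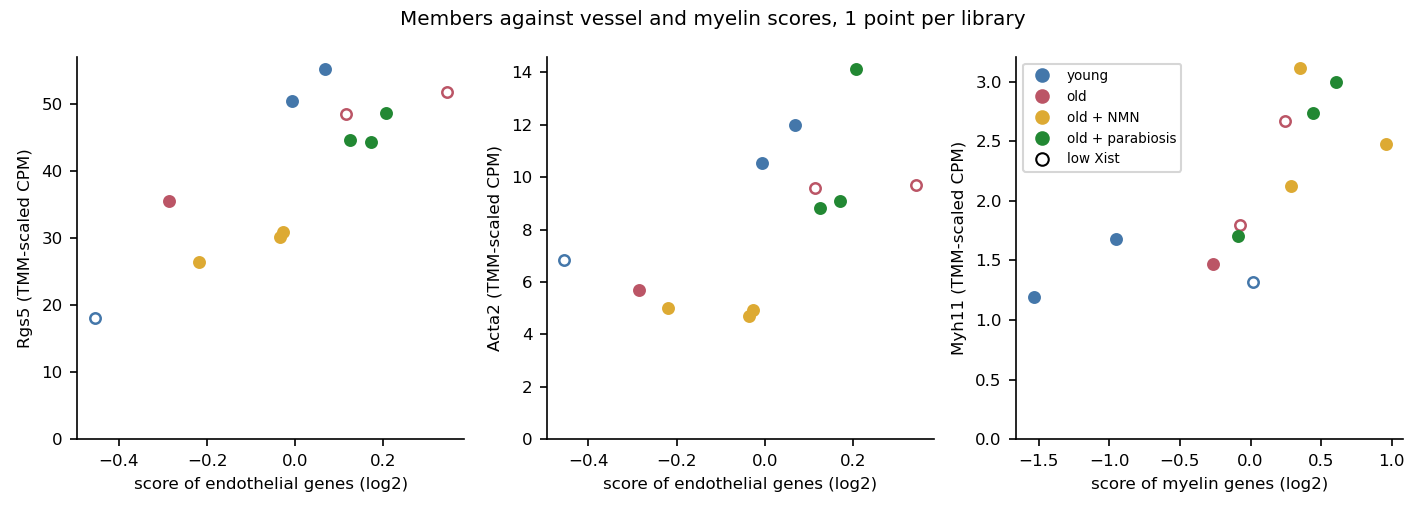
Rgs5 and Acta2 (TMM-scaled CPM) against the endothelial score and Myh11 against the myelin score (log2 deviations from the mean of 12 libraries), 1 point per library, coloured by group with the libraries of low Xist open. The 3 NMN libraries sit low for Acta2 at endothelial scores where other libraries are higher, and Myh11 is low in the young libraries.

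Acta2 in NMN tumours was also low relative to endothelial genes. Its log2 deviation minus the endothelial score was -0.62 to -0.36 in NMN, -0.14 to 0.13 in old, 0.26 to 0.47 in young and -0.0023 to 0.55 in parabiosis tumours, so the NMN libraries did not overlap with the other groups. For Rgs5 the values were -0.31 to -0.28 in NMN, 0.071 to 0.21 in old, 0.025 to 0.12 in parabiosis and -0.60 to 0.44 in young tumours, where young 3 was the lowest. These values are a description and were given no test of their own.

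The genes most alike to each of the 10, by Pearson r over 12 libraries among 14109 genes compared, were mostly not mural genes. These r are the highest of many over few libraries and were given no test. Without the libraries of low Xist, r of the pairs named here ran from 0.75 (Pdgfrb with Srp54a) to 0.97 (Myh11 with Crybb1). The nearest to Acta2 were Vps29 (0.93), Lipa (0.92) and Cpne3 (0.92), and the nearest of the other 9 genes, Rgs5, was 297th. Abcc9 was nearest to Man2a1 (0.94), Esam (0.92) and Col4a2 (0.91), an endothelial adhesion molecule and a vessel basement membrane collagen being the latter 2, with Rgs5 at place 76. Rgs5 was nearest to Eno1 (0.96), Dscr3 (0.94) and Flt4 (0.93), and Myh11 to Siglech (0.94), Crybb1 (0.93) and Zfp709 (0.93), of which Siglech and Crybb1 are microglial genes. The nearest to the others were Srp54a for Pdgfrb (0.91), Zfp94 for Notch3 (0.93), Steap3 for Mcam (0.93), Clec2d for Anpep (0.94), Zfp235 for Tagln (0.87) and Cilp2 for Des (0.92).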

How the data were processed

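RNA was sequenced from 12 mouse brain tumours. Per the labels' protocols, libraries kept strand, lacked ribosomal RNA and were read from both ends. Per the submitters' processing notes, FastQC, Bowtie2 2.1.0, RSEM 1.2.15 and edgeR were used with mm10 and GRCm38. Values were deposited as CPM after TMM scaling by the authors, in 1 table, and 0 columns were left unused. RSEM shares reads between similar genes, so Acta2 may exchange reads with other actins.

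The CPM values were whole multiples of 1 read in 100% of cases (tolerance 0.01), which gave whole reads. A count of 3 reads is 0.100 to 0.143 CPM, for counting error only. All 12 libraries were fitted together on log2(CPM + 1), which understates changes of low genes, with limma 3.58.1 (R 4.3.3) and a variance trend, 1 mean per group. p-values were two-sided and adjusted with the Benjamini-Hochberg method over the 15232 genes kept. edgeR 4.0.16 and DESeq2 1.42.0 on whole reads were alternatives. Groups came from the labels, which describe 3 mice per group. With 3 against 3 an exact permutation test cannot go below 0.1. Groups do not overlap where every library of one lies above every library of the other.

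The 10 genes, 15 lists of partner and marker genes and their roles were chosen with earlier results of these data known, and every one of the 10 is reported. A list score is the mean log2 deviation of its genes from the mean of 12 libraries, and correlations used 100000 permutations. The 2 libraries farthest from the median were picked by the first gene of a pair, or by the list score or Y-linked sum. Extreme values of the other gene stayed in. For each of the 10, the 3 genes with the highest r were taken as most alike. Leaving out libraries with Xist under 10 CPM was chosen after seeing the data. The limma fit was tried on simulated counts with the same fixed dispersion for every gene and no differences in tissue content. That trial does not cover a spread as uneven as that of these libraries.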

Additional observations from a re-analysis of the deposited data

How the results depend on the processing

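Over up to 25 alternatives and the 6 comparisons, 1482 values of single genes were recomputed (log2 differences): 1390 kept their direction and side of the threshold, 83 changed sign, 9 passed it and 0 lost it. The 9 were all Acta2 or Rgs5. For NMN against young, Acta2 passed with adjusted p of 0.0365 (quantile normalization), 0.00884 (DESeq2), 0.0417 (replicate block), 0.0301 (endothelial score as covariate), 0.0218 (without young replicate 3) and 0.0249 (without the libraries of low Xist). Rgs5 passed with 0.00872 and 0.0112 under the last 2 of these, and Acta2 passed in NMN against parabiosis with 0.0170 (DESeq2). Under quantile normalization the median of all genes was -0.16 in NMN against young and -0.10 in parabiosis against young. In the main fit it was -0.014 and 0.011, so changes under quantile normalization are relative to the moved median. The alternative planned for Xist under 1 CPM found 0 libraries and was not run. Genes of low depth (Des, Myh11) limit what can be seen. Where a value below changed, the cause was not tested.

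The number of genes called was 1242 in NMN against young and 0 elsewhere. DESeq2 called 72 (old against young), 46 (NMN against old), 44 (parabiosis against old), 2367 (NMN against young), 977 (parabiosis against young), 224 (NMN against parabiosis) and 1614 (F test). For NMN against young it was 742 with no filter on low values, 93 with edgeR, 29 with only the 2 groups compared, 0 with the brain tissue score as covariate and 1376 with the replicate block. Without the libraries of low Xist it was 2 for parabiosis against old, 327 for parabiosis against young, 2 for NMN against parabiosis and 11 for the F test, which called 3 with no filter. Leaving out 1 library gave 0 to 2 genes in old against young, 0 to 1 in parabiosis against old, 0 to 2129 in NMN against young, 0 to 701 in parabiosis against young, 0 to 1 in NMN against parabiosis and 0 to 689 in the F test, with the high values in NMN against young, parabiosis against young and the F test all without young replicate 3. With the replicate number as a block no other call among the 10 genes changed. Same-numbered libraries deviated together in 10 of 18 pairs (r over 0.1, range -0.50 to 0.60), including all 6 pairs of number 2, and 8 of 12 libraries correlated best with their own number. This is a hint of pairing from the data. Since the labels name no shared batch and not every pair correlated, the fit without the block was kept.

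The median of the 10 genes was, without the libraries of low Xist, -0.11 in old against young, -0.0024 in NMN against old, 0.37 in parabiosis against old and -0.041 in parabiosis against young. Under quantile normalization it was -0.32 in NMN against young and -0.021 in parabiosis against young, and with the endothelial score -0.20 in parabiosis against young and -0.048 in NMN against parabiosis. Leaving out 1 library gave -0.57 to -0.26 in NMN against old, -0.26 to 0.069 in NMN against young and -0.041 to 0.29 in parabiosis against young. The median correlation between the 10 genes was 0.20 without the 2 farthest libraries, 0.31 as deviations from group means and 0.17 without the libraries of low Xist, and that with list scores 0.14, 0.21 and 0.21.

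Without the libraries of low Xist the sign changed in old against young for Pdgfrb (-0.041), Rgs5 (-0.55) and Abcc9 (-0.69), in NMN against old for Pdgfrb (0.22), Mcam (0.0013) and Abcc9 (0.24), in parabiosis against old for Mcam (0.38), Abcc9 (0.51) and Tagln (-0.11), and in parabiosis against young for Rgs5 (-0.20), Abcc9 (-0.17), Acta2 (-0.097) and Des (0.014). With the endothelial score it changed in old against young for Rgs5 (-0.069) and Abcc9 (-0.14), in parabiosis against old for Pdgfrb (-0.087), Anpep (-0.12) and Rgs5 (-0.16), in parabiosis against young for Rgs5 (-0.23), Abcc9 (-0.41) and Acta2 (-0.24), and in NMN against parabiosis for Pdgfrb (0.076) and Abcc9 (0.16). With the brain tissue score it changed for Acta2 in old against young (0.046), Abcc9 in parabiosis against old (0.0044), and in NMN against young for Anpep (1.11), Rgs5 (0.66), Abcc9 (0.14), Tagln (0.038) and Des (-0.12).

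Under quantile normalization it changed in parabiosis against old for Pdgfrb (-0.0084), Rgs5 (-0.019) and Tagln (-0.021), in NMN against young for Notch3 (-0.042) and Des (-0.29), in parabiosis against young for Abcc9 (-0.069) and Acta2 (-0.078), and in NMN against parabiosis for Myh11 (-0.020) and Des (-0.011). With library totals it changed for Rgs5 in parabiosis against old (-0.0016) and Notch3 in NMN against young (-0.011). With edgeR it changed for Pdgfrb (-0.056) and Rgs5 (-0.0019) in parabiosis against old and Des (-0.0032) in NMN against young, with DESeq2 for Pdgfrb in parabiosis against old (-0.050), and with a pseudocount of 0.1 for Des in parabiosis against young (0.0058).

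Leaving out 1 library gave sign changes within these ranges. In old against young they were -0.33 to 0.034 (Mcam), -0.23 to 0.55 (Rgs5), -0.12 to 0.47 (Abcc9) and -0.42 to 0.016 (Acta2), and in NMN against old -0.41 to 0.15 (Pdgfrb). In parabiosis against old they were -0.16 to 0.40 (Pdgfrb), -0.35 to 0.17 (Mcam), -0.098 to 0.29 (Anpep), -0.13 to 0.14 (Rgs5), -0.39 to 0.21 (Abcc9) and -0.015 to 0.15 (Tagln). In NMN against young they were -0.32 to 0.22 (Notch3), -0.47 to 0.45 (Anpep), -0.20 to 0.036 (Tagln) and -0.082 to 0.13 (Des). In parabiosis against young they were -0.20 to 0.58 (Rgs5), -0.17 to 0.26 (Abcc9), -0.097 to 0.27 (Acta2) and -0.12 to 0.094 (Des), and in NMN against parabiosis -0.12 to 0.16 (Myh11) and -0.038 to 0.11 (Des).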

Other observations

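The 4 Y-linked genes measured (Ddx3y, Kdm5d, Uty and Eif2s3y) had reads in all 12 libraries, with a sum of 91.0 to 387 CPM, although the mice are labelled female. Correlations of the 10 genes with the log2 of that sum across the 12 libraries were chosen after seeing the data. By Pearson permutation test 0 of the 10 passed an adjusted p of 0.05, and by Spearman Pdgfrb and Myh11 did. Pdgfrb had rho = -0.81 (adjusted permutation p = 0.0171) and r = -0.53 (adjusted permutation p = 0.275), and Myh11 had rho = -0.79 (adjusted permutation p = 0.0171) and r = -0.69 (adjusted permutation p = 0.0562). Mcam had r = 0.74 (adjusted permutation p = 0.0562) and rho = 0.62 (adjusted permutation p = 0.100). Without NMN 1 and parabiosis 3, the libraries farthest from the median of the Y-linked sum, r was -0.63 for both Pdgfrb and Myh11 and 0.42 for Mcam. Summed choroid plexus genes reached 942 CPM in NMN 3 and 135 CPM in young 3, against at most 19.8 CPM in the old and 10.2 CPM in the parabiosis tumours. Summed fibroblast genes reached 942 CPM in the old tumours and at most 451 CPM in the young, 319 CPM in the NMN and 298 CPM in the parabiosis tumours.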
